A study of Mus musculus with 15 samples.

Results

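The ClC and LRRC8 genes encode chloride channels and chloride/proton exchangers outside the CLIC family. Their members here were taken by gene symbol: 5 ClC genes (Clcn2, Clcn3, Clcn5, Clcn6 and Clcn7) and 5 LRRC8 genes (Lrrc8a to Lrrc8e), 10 of the 55341 symbols in the deposited count table. They were read across 4 groups of 6DT1, a line of mammary cancer cells from FVB/N1 mice: cells with Clic4 knocked out and given 1 µM hydrogen peroxide (H2O2), untreated Clic4-knockout cells, wild-type cells given 1 µM H2O2, and untreated wild-type cells. RNA was harvested after 24 h. The groups held 3, 4, 4 and 4 libraries in that order, 15 in all, of 12.31 to 16.03 M counts. CLIC4 is itself a chloride intracellular channel protein, so the comparisons ask how the other chloride channel genes stood when it was lost, and whether an oxidant altered them. The labels name neither the number of knockout clones nor whether replicates were separate cultures, so p-values measure the spread between these libraries.

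ClC proteins are dimers. Some are plasma membrane chloride channels, such as ClC-2, and others are exchangers in the membranes of endosomes (ClC-3, ClC-4, ClC-5), late endosomes (ClC-6) and lysosomes (ClC-7), where they move chloride against protons. LRRC8 proteins assemble into the volume-regulated anion channel, which opens when a cell swells and releases chloride and organic osmolytes. LRRC8A is the obligatory subunit, and the LRRC8B to LRRC8E partners set the conductance, the choice of osmolyte and the response to oxidants.

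The labels were checked first. Clic4 averaged 71.3 ± 4.92 CPM (counts per M counts, TMM-scaled) in untreated knockout and 321 ± 5.05 CPM in untreated wild-type libraries (SD, n = 4 each), a log2 fold change of -2.17. With H2O2 it averaged 71.8 CPM in knockout and 315 CPM in wild-type libraries, a log2 fold change of -2.13. Wild-type replicate 9 was titled untreated wild type while its genotype field reads knockout. Its Clic4 level was 326.7 CPM and it was kept as wild type. That library also held 4.52 CPM of Ptprc, 0.878 CPM of Cd3e and 19.4 CPM of Lyz2, immune markers that reached at most 0.0742, 0 and 0.327 CPM in the other 14 libraries. Markers of other cell types were high there too, with 2.90 CPM of Pdgfrb, 2.36 CPM of Pecam1 and 0.473 CPM of Hbb-bs. In the libraries of the other groups these reached at most 0.0668, 0.347 and 0 CPM. Without replicate 9, the same number of the 10 genes was called in every comparison. Of 7 epithelial markers, 3 keratins were tested and did not go one way. Without treatment Krt8 averaged 649.5 CPM in knockout and 646.1 CPM in wild-type libraries (log2 0.01, not called), Krt18 averaged 153 CPM in knockout and 334 CPM in wild-type libraries (log2 -1.12, called lower), and Krt19 averaged 156 CPM in knockout and 54.2 CPM in wild-type libraries (log2 1.52, called higher). The defining epithelial markers Epcam and Cdh1 stayed at or below 0.0695 and 0.144 CPM in every library. The sum of 7 immune markers, nearly all of it Cd68, ranged from 269.1 to 308.9 CPM over the knockout libraries and from 387.8 to 431.4 CPM over the wild-type libraries. Itgam, another immune marker, averaged 3.52 CPM in treated knockout and 0.855 CPM in treated wild-type libraries (log2 2.03, called higher). Without treatment it averaged 3.54 CPM in knockout libraries. Untreated wild-type libraries ranged from 0.638 to 6.48 CPM, the highest in replicate 9, and Itgam was not called (log2 0.53). Of 5 endothelial markers, Cdh5 was tested and called higher, at 1.66 CPM in untreated knockout and 0.71 CPM in untreated wild-type libraries (log2 1.21, and 1.02 with H2O2). Kdr, not tested, averaged 0.09 CPM in untreated knockout and 0.304 CPM in untreated wild-type libraries (0.105 and 0.435 CPM with H2O2). Pecam1, not tested, averaged 0.171 and 0.654 CPM in the same untreated groups, and 0.285 and 0.0497 CPM with H2O2. The sum of 7 fibroblast markers, most of it Pdgfra, ranged from 11.1 to 13.9 CPM in knockout and from 16.9 to 22.5 CPM in wild-type libraries. Its scarcer members went both ways. Col1a1 averaged 0.459 CPM in untreated knockout and 0.886 CPM in untreated wild-type libraries. Col1a2 averaged 0.281 and 0.101 CPM in the same groups, and Dcn 0.287 and 0.155 CPM. The part of these differences in the results was not tested. In bulk RNA, fewer cells of a type and less RNA per cell cannot be told apart.

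Promoters are shown for Clcn7 and Clcn6, which had the same short motif near their start and moved in opposite directions, for Lrrc8a, the obligatory subunit, and for Lrrc8c, the LRRC8 gene that was called. RefSeq windows of 250 bases upstream of each start site were read on GRCm38.p6, the assembly of mm10. All 10 genes matched, with 14 start sites. They were searched on both strands for CACGTG, the core of the element bound by the lysosomal regulators TFEB and TFE3 and by other factors, for TGACGTCA, the element bound by CREB and ATF factors, and for TGACNNNGC, the core of the antioxidant response element. Each window below runs 5′ to 3′ on the gene's strand and ends at the base before the start. The windows are chr17:25133141-25133390 (Clcn7, first start site, plus strand), chr4:148038814-148039063 (Clcn6, minus strand), chr2:30237519-30237768 (Lrrc8a, plus strand) and chr5:105519221-105519470 (Lrrc8c, plus strand). Capitals mark the motifs.
Clcn7: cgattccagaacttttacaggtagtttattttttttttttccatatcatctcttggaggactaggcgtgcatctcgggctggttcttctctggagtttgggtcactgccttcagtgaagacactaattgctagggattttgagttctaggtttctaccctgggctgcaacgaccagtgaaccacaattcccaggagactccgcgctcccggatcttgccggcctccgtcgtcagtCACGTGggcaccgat
Clcn6: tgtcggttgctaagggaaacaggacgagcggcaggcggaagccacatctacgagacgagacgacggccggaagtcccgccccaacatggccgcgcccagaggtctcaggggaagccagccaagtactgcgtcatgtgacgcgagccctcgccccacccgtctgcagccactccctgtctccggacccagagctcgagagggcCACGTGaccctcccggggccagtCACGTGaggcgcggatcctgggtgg
Lrrc8a: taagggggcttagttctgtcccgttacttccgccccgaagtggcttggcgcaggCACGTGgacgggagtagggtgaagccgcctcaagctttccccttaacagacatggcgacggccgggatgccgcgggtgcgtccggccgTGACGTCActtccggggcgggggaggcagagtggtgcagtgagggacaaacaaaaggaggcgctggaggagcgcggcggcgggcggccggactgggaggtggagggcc
Lrrc8c: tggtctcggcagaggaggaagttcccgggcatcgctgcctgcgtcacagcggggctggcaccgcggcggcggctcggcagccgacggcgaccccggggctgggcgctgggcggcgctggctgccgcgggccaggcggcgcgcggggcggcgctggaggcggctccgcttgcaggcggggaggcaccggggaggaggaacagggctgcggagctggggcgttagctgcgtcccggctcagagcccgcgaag

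CACGTG stood in 3 of the 14 windows, from 3 of the 10 genes: once in Clcn7, beginning 15 bases before the start, 2 times in Clcn6, at 48 and 25 bases before it, and once in Lrrc8a, at 196 bases. It was found in 6.02% of the 32841 mouse promoter windows of the same length. TGACGTCA stood in 1 of the 14 windows, that of Lrrc8a, at 108 bases before the start, and in 1.55% of all windows. TGACNNNGC stood in 3 of the 14 windows, the second start site of Clcn3, the second of Clcn5 and Lrrc8b, and in 10.2% of all windows. No matches to different motifs overlapped in these windows. The Lrrc8c window held none of the 3 motifs and was 78.4% G and C, against 50.4% in the Clcn7 window. A match is a description of the letters and not a binding site.

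All 10 genes had counts, and 9 passed the filter on low counts and were tested among 13085 genes. Lrrc8e did not pass. Adjusted p-values are from edgeR's quasi-likelihood test with Benjamini-Hochberg adjustment over all genes tested, and a gene under 0.05 was called. Some of the 10 genes overlap others. Lrrc8d is crossed by the antisense gene Lrrc8dos, which had 8 counts in all libraries, and by the pseudogene Rps15a-ps5 on the opposite strand, which had 86. C230066G23Rik, inside Lrrc8c, had 0. Clcn5 holds 5 miRNA genes on its own strand and Gm26401 on the other. Clcn2 and Clcn6 are overlapped by genes on the opposite strand (Fam131a and Polr2h, and Gm13207). Lrrc8a is overlapped by 1700084E18Rik on the opposite strand and by Gm28035 on its own. The kit was stranded, but the strand setting of the counting is not given in the sources used here, so reads in those overlaps are uncertain. The coefficient of variation between libraries of a group ranged over the 9 tested genes from 0.309% (Lrrc8d in treated knockout cells, where counting alone gives 2.22%) to 18.0% (Clcn2 in treated wild-type cells, where counting alone gives 14.3%). No 31-base stretch of exon sequence was shared between any pair of the 10 genes.

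**Figure D1:**
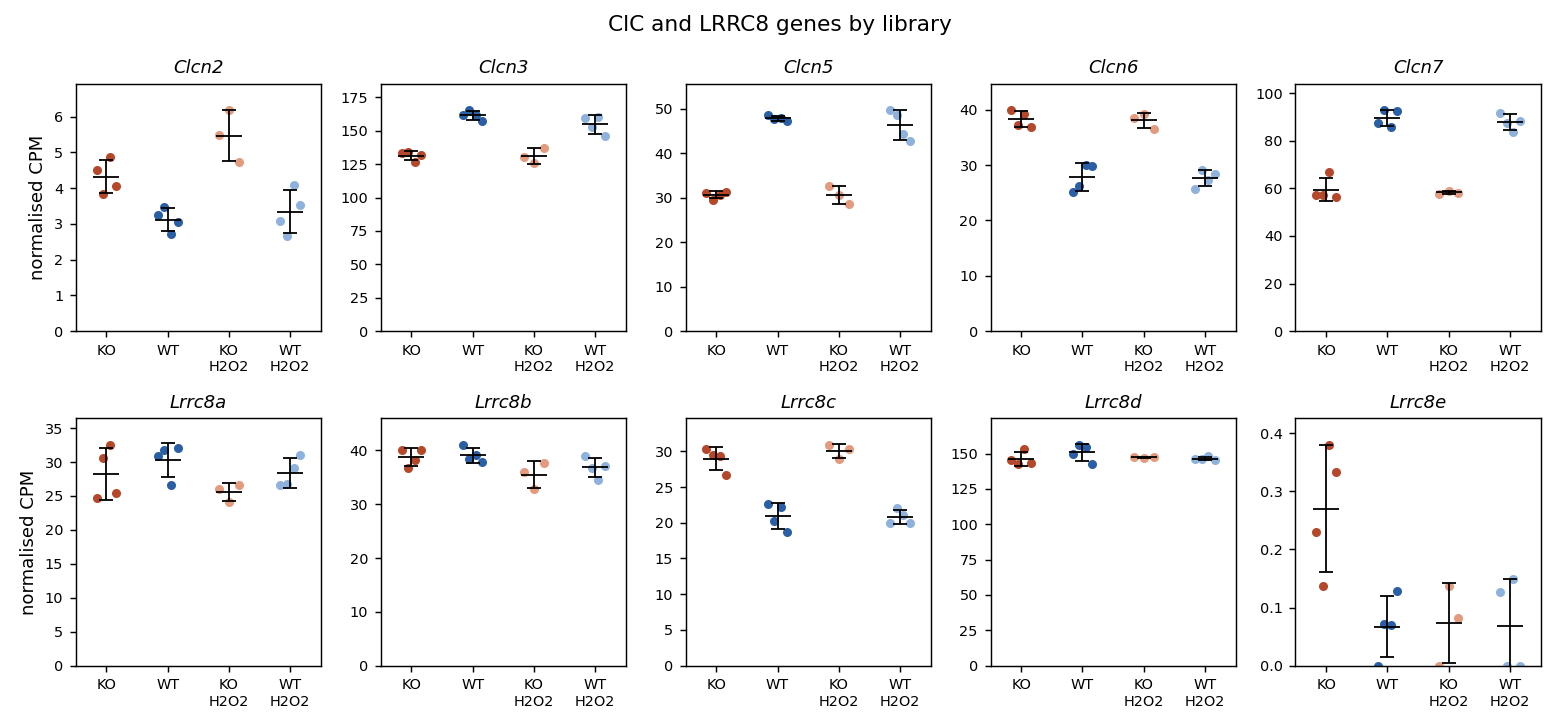
Normalised CPM of the 10 genes in every library (points) with group mean and SD (bars), for untreated knockout (KO) and wild-type (WT) libraries and the same with 1 µM H2O2, on linear axes from 0. The KO and WT points of Clcn3, Clcn5, Clcn6, Clcn7 and Lrrc8c form separate bands in both treatments, while those of Lrrc8a, Lrrc8b and Lrrc8d overlap.

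Without treatment, 6 of the 9 tested genes differed between knockout and wild-type cells, 3 in each direction. The exchanger genes Clcn5, Clcn7 and Clcn3 were lower in knockout cells, and Clcn6, Clcn2 and Lrrc8c were higher. In this comparison 66.8% of all genes tested were called (33.9% higher and 32.9% lower), so 6 of 9 is near the share for any gene. How many of all genes tested had groups without overlap was not counted. The median log2 fold change of the 9 genes was -0.04, against 0.00 for all genes, and their median absolute change was 0.46, against 0.30 for all genes. None reached 2-fold: the largest change was 0.64 on the log2 scale.

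Among the plasma membrane channels of the ClC family, Clcn2 (chromosome 16, 20702964-20717746, minus strand, mm10) opens on hyperpolarisation and swelling. Its libraries held 4.52, 3.83, 4.87 and 4.07 CPM in untreated knockout cells, against 3.24, 3.47, 2.71 and 3.06 CPM in untreated wild-type cells. Every knockout library was above every wild-type library. The log2 fold change was 0.47 (SE 0.151, adjusted p = 0.00754), from 253 counts in knockout and 184 in wild-type libraries. This was the least precise of the tested genes, since its counts were the fewest.

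The endosomal exchangers were lower in knockout cells. Clcn3 (chromosome 8, 60910389-60983300, minus strand) encodes an exchanger of endosomes and synaptic vesicles. Its libraries held 133.4, 133.9, 126.6 and 131.8 CPM in untreated knockout cells, against 161.6, 165.3, 162 and 157.4 CPM in wild-type cells. The groups did not overlap, and the log2 fold change was -0.30 (SE 0.038, adjusted p = 1.03e-07). Clcn5 (chromosome X, 7153810-7319358, minus strand) encodes the early endosomal exchanger whose human gene is mutated in Dent disease. Its libraries held 31.2, 29.5, 30.7 and 31.4 CPM in untreated knockout cells, against 48.6, 47.6, 48 and 47.2 CPM in wild-type cells. The highest knockout library lay well below the lowest wild-type library. Clcn5 changed most of the 9 genes, with a log2 fold change of -0.64 (SE 0.055, adjusted p = 3.61e-11).

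The late endosomal and lysosomal exchangers moved in opposite directions. Clcn6 (chromosome 4, 148004259-148038821, minus strand) encodes the late endosomal exchanger, best known from neurons. Its libraries held 39.9, 37.2, 39.3 and 36.9 CPM in untreated knockout cells, against 25.2, 26.1, 30.1 and 29.9 CPM in wild-type cells. The wild-type libraries fell into a lower and a higher pair, both below the knockout libraries, and the log2 fold change was 0.46 (SE 0.061, adjusted p = 1.59e-07). Clcn7 (chromosome 17, 25133391-25162104, plus strand) encodes the lysosomal exchanger that osteoclasts need to resorb bone. Its libraries held 57.3, 57.4, 66.8 and 56.3 CPM in untreated knockout cells, against 87.6, 92.8, 85.8 and 92.4 CPM in wild-type cells. Knockout replicate 3 stood above the other knockout libraries and still below the wild-type libraries. The log2 fold change of Clcn7 was -0.59 (SE 0.049, adjusted p = 1.55e-11), and it was -0.66 without that library.

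Of the LRRC8 genes, Lrrc8c was called and the other 3 tested genes were not. Lrrc8a (chromosome 2, 30237715-30263790, plus strand), the obligatory subunit, had 24.7, 30.5, 32.5 and 25.4 CPM in untreated knockout libraries, against 30.8, 31.8, 26.6 and 32 CPM in untreated wild-type libraries. The groups overlapped, and both spread widely: the coefficient of variation was 13.7% in knockout libraries, against 4.91% from counting alone. The log2 fold change was -0.10, with a 95% interval of -0.26 to 0.07 (adjusted p = 0.296). Without knockout replicate 3 it was -0.18 and was called, at an adjusted p of 0.0474, the lowest of 20 alternatives that ran up to 0.687.

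Lrrc8b, Lrrc8c and Lrrc8d lie side by side on the plus strand of chromosome 5, at 105415775-105490074, 105519388-105613018 and 105699969-105832436. Lrrc8b encodes a partner subunit that was also described as an endoplasmic reticulum calcium leak protein. Its libraries held 40.1, 36.7, 38.2 and 40.1 CPM in untreated knockout cells, against 41, 38.4, 39.1 and 37.9 CPM in wild-type cells, and they overlapped. Its log2 fold change was -0.01, with a 95% interval of -0.12 to 0.10 (adjusted p = 0.85).

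Lrrc8c, a partner subunit first named for its part in adipocyte differentiation, was the LRRC8 gene that differed. Its libraries held 30.3, 29.5, 29.3 and 26.6 CPM in untreated knockout cells, against 22.6, 20.2, 22.2 and 18.8 CPM in wild-type cells. Each knockout library was above each wild-type library. The log2 fold change was 0.47 (SE 0.066, adjusted p = 4.30e-07), a ratio of 1.38.

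Lrrc8d, the partner subunit that lets the channel pass taurine and, in human cells, cisplatin, lies next to it. Its libraries held 145.7, 142.7, 153.4 and 143 CPM in untreated knockout cells, against 149.8, 156.2, 154.6 and 142.6 CPM in wild-type cells. The groups overlapped, and the log2 fold change was -0.04, with a 95% interval of -0.12 to 0.03 (adjusted p = 0.293). So a gene called as higher lay between neighbours whose intervals include 0.

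Lrrc8e (chromosome 8, 4226827-4237470, plus strand) encodes the remaining partner subunit and was close to the counting limit. Its counts summed to 16 in the 4 libraries of untreated knockout cells and to 4 in those of untreated wild-type cells, a ratio of 3.95 with an exact binomial 95% interval of 1.27 to 16.2. With H2O2 it had 3 counts in 3 knockout libraries and 4 in 4 wild-type libraries, a ratio of 1.06 with an interval of 0.155 to 6.27. These intervals cover counting error only, and the gene was not tested.

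The genotype comparison under H2O2 shares no library with the untreated one. There 65.4% of all genes tested were called, 33% higher and 32.4% lower, and 6 of the 9 genes were called. They were the same 6, each in its untreated direction. Clcn5 had 32.6, 30.6 and 28.6 CPM in treated knockout libraries, against 49.7, 48.7, 44.2 and 42.8 CPM in treated wild-type libraries. Clcn7 had 57.9, 59 and 58.2 CPM in treated knockout libraries, against 91.6, 87.5, 83.7 and 88.4 CPM in treated wild-type libraries. Neither gene's groups overlapped, and the log2 fold changes were -0.60 and -0.59 (edgeR, adjusted p = 1.11e-09 and 1.33e-10).

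The other 4 called genes were likewise separated under H2O2. The share of all genes tested that were separated in this way was not counted. Lrrc8c had 30.9, 28.9 and 30.4 CPM in treated knockout libraries, against 20, 22, 21.1 and 20 CPM in treated wild-type libraries (log2 0.53, adjusted p = 1.85e-07). Clcn6 had 38.5, 39.3 and 36.6 CPM in treated knockout libraries, against 25.7, 29.2, 27.4 and 28.4 CPM in treated wild-type libraries (log2 0.46, adjusted p = 6.23e-07). Clcn2 had 5.49, 6.18 and 4.75 CPM in treated knockout libraries, against 3.08, 2.68, 4.08 and 3.52 CPM in treated wild-type libraries (log2 0.73, adjusted p = 0.000188). Clcn3 had the narrowest gap relative to its level. Its libraries held 130.3, 125.9 and 137.1 CPM in treated knockout cells, against 159.5, 152.8, 160.6 and 145.9 CPM in treated wild-type cells (log2 -0.24, adjusted p = 1.37e-05). The 3 uncalled genes had log2 fold changes of -0.15 (Lrrc8a, 95% interval -0.33 to 0.04), -0.06 (Lrrc8b, -0.18 to 0.07) and 0.01 (Lrrc8d, -0.07 to 0.09).

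**Figure D2:**
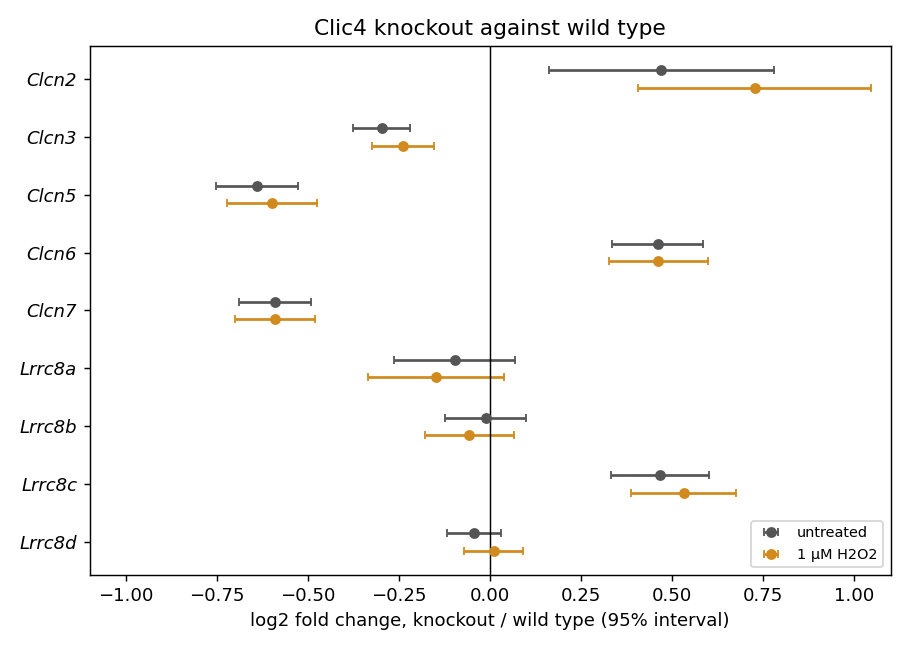
Log2 fold change of the 9 tested genes, Clic4 knockout over wild type, without treatment (grey) and with 1 µM H2O2 (orange), with 95% intervals. Clcn2, Clcn6 and Lrrc8c lie right of 0 and Clcn3, Clcn5 and Clcn7 left of it in both treatments, while the intervals of Lrrc8a, Lrrc8b and Lrrc8d include 0.

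H2O2 left the 9 genes with no call in either genotype. In knockout cells 0 of 9 were called by edgeR, against 0.0535% of all genes (7 genes, with 1041 at an unadjusted p under 0.05). In wild-type cells 0 of 9 were called, against 0.0153% of all genes (2 genes, with 847 at an unadjusted p under 0.05). The difference between the genotypes' responses was called for 0 of 9, against 0% of all genes (0 genes, with 808 at an unadjusted p under 0.05). DESeq2 called 0 of the 9 in each of these comparisons too.

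Clcn2 had the largest response to H2O2 by point estimate. In knockout cells it had 5.49, 6.18 and 4.75 CPM with H2O2, against 4.52, 3.83, 4.87 and 4.07 CPM untreated. The groups overlapped at 1 library, and the log2 fold change was 0.34, with a 95% interval of 0.03 to 0.65 (unadjusted p = 0.0307, adjusted p = 0.574 by edgeR). In wild-type cells its log2 fold change was 0.09, with an interval of -0.23 to 0.41. Lrrc8b was the other gene under an unadjusted 0.05 in knockout cells. It had 36, 32.8 and 37.6 CPM with H2O2, against 40.1, 36.7, 38.2 and 40.1 CPM untreated (log2 -0.13, unadjusted p = 0.0395, adjusted p = 0.603 by edgeR). No gene was under that value in wild-type cells.

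Intervals for the better counted genes were narrow. In wild-type cells the log2 fold change with H2O2 was -0.04 for Lrrc8d (95% interval -0.12 to 0.03), -0.06 for Clcn3 (-0.14 to 0.02) and -0.03 for Clcn7 (-0.13 to 0.07). In knockout cells it was 0.01 for Lrrc8d (-0.07 to 0.09), 0.00 for Clcn3 (-0.09 to 0.08) and -0.03 for Clcn7 (-0.14 to 0.08). Lrrc8a, the obligatory subunit, had -0.15 in knockout cells (-0.34 to 0.04) and -0.10 in wild-type cells (-0.26 to 0.07).

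**Figure D3:**
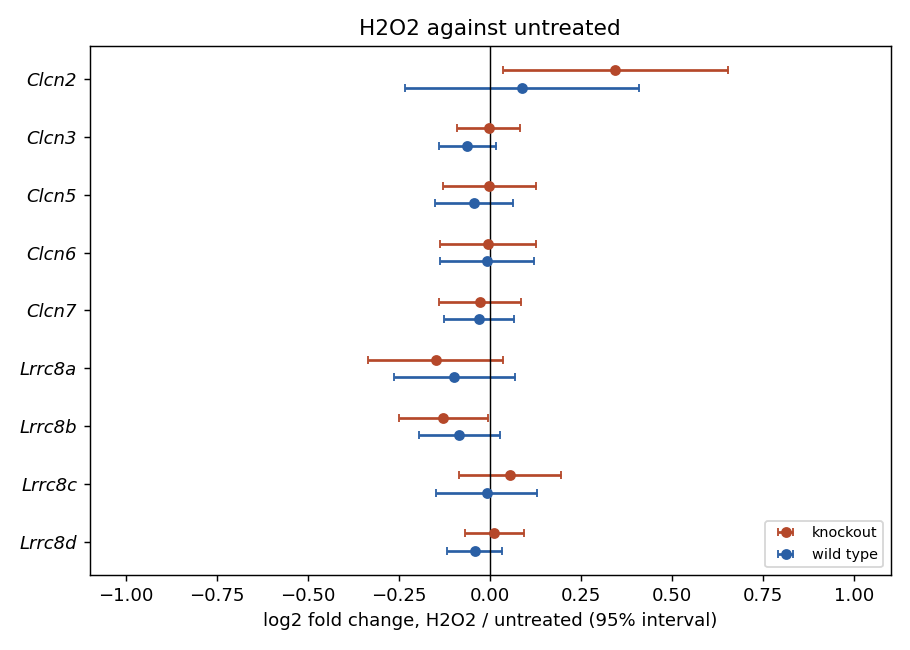
Log2 fold change of the 9 tested genes, 1 µM H2O2 over untreated, in knockout (red) and wild-type cells (blue), with 95% intervals not adjusted for the number of genes. Point estimates lie between -0.15 and 0.34, and the widest intervals belong to Clcn2.

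How much of each transcript the cells held depended on the gene length used. Levels between genes were compared only per length, first with the authors' deposited RPKM (reads per kilobase per M). By deposited RPKM, Lrrc8c and Lrrc8d were the most abundant LRRC8 genes, at 23.6 ± 1.23 and 22.2 ± 0.759 RPKM in untreated knockout and 17.4 ± 1.52 and 23.4 ± 1 RPKM in untreated wild-type libraries (SD, n = 4 each). The libraries of Lrrc8c and Lrrc8d overlapped in knockout cells and did not in wild-type cells. Lrrc8a followed at 4.16 ± 0.562 RPKM in knockout and 4.56 ± 0.386 RPKM in wild-type libraries. Lrrc8b had 4.20 ± 0.191 RPKM in knockout and 4.33 ± 0.162 RPKM in wild-type libraries, so the order of Lrrc8a and Lrrc8b was within their spread.

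The length behind the Lrrc8c value was short. Dividing counts by deposited RPKM gave Lrrc8c an implied length of 1211 bases, 0.174 of its longest coding transcript in GENCODE M21 (6976 bases). Over 9482 genes this ratio had a median of 1.44, and 0.316% of genes had a lower one than Lrrc8c. Clcn5 was also below most genes, at 0.653, while the other 8 genes lay between 1.35 and 1.77.

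With the longest coding transcript as length, a scale chosen after seeing the data, Lrrc8d stood well above the other LRRC8 genes. It had 36.7 ± 1.25 counts per kb per M in untreated knockout and 38.7 ± 1.65 in untreated wild-type libraries. Lrrc8a had 6.48 ± 0.876 in knockout and 7.10 ± 0.602 in wild-type libraries on this scale. Lrrc8b had 5.68 ± 0.259 in knockout and 5.86 ± 0.219 in wild-type libraries. Lrrc8c was then the lowest of the tested LRRC8 genes, at 4.09 ± 0.214 in knockout and 3.03 ± 0.265 in wild-type libraries. Lrrc8a and Lrrc8b overlapped in knockout libraries, and Lrrc8c lay below both in each genotype.

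As shares of the summed LRRC8 signal by deposited RPKM, Lrrc8c made up 43.5% ± 1.42 in untreated knockout and 35.0% ± 1.79 in untreated wild-type libraries. Lrrc8d made up 41.0% ± 0.993 in knockout and 47.1% ± 1.26 in wild-type libraries. Lrrc8a held 7.66% ± 0.895 in knockout and 9.18% ± 1.02 in wild-type libraries, and Lrrc8b 7.77% ± 0.522 and 8.71% ± 0.242 in the same groups. With the GENCODE lengths, Lrrc8c made up 7.72% in knockout and 5.53% in wild-type libraries, and Lrrc8d 69.2% and 70.7%. The Lrrc8c share was higher in knockout cells with either length, but its size rests on the length.

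The ClC order was steadier. By deposited RPKM, Clcn3 led the 5 ClC genes with 15.9 ± 0.39 RPKM in untreated knockout and 19.97 ± 0.466 RPKM in untreated wild-type libraries. Clcn7 followed with 8.63 ± 0.714 RPKM in knockout and 13.3 ± 0.524 RPKM in wild-type libraries. Clcn5 had 5.52 ± 0.166 RPKM in knockout and 8.80 ± 0.13 RPKM in wild-type libraries, and Clcn6 had 4.85 ± 0.186 and 3.60 ± 0.315 RPKM in the same groups. Clcn2 was last at 0.772 ± 0.0829 RPKM in knockout and 0.570 ± 0.06 RPKM in wild-type libraries. No neighbours in this order overlapped. With the GENCODE lengths Clcn3 and Clcn7 stayed first and second, but Clcn6 exceeded Clcn5 in knockout libraries (7.27 ± 0.278 and 3.61 ± 0.109 counts per kb per M), and these genes overlapped in wild-type libraries (5.39 ± 0.471 and 5.75 ± 0.0851). As shares of the RPKM summed over these 5 genes, Clcn6 held 13.6% in knockout and 7.79% in wild-type libraries. Clcn3 held 44.6% and 43.2%, Clcn7 24.2% and 28.8%, Clcn5 15.5% and 19.0%, and Clcn2 2.16% and 1.23% in the same groups. The sum left out the ClC genes Clcn4 and Clcn1, so these are not shares of the whole ClC signal. By deposited RPKM, Clcn4 lay above Clcn5, at 7.41 RPKM in untreated knockout and 10.97 RPKM in untreated wild-type libraries. Clcn1 lay above Clcn2 in both groups.

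**Figure D4:**
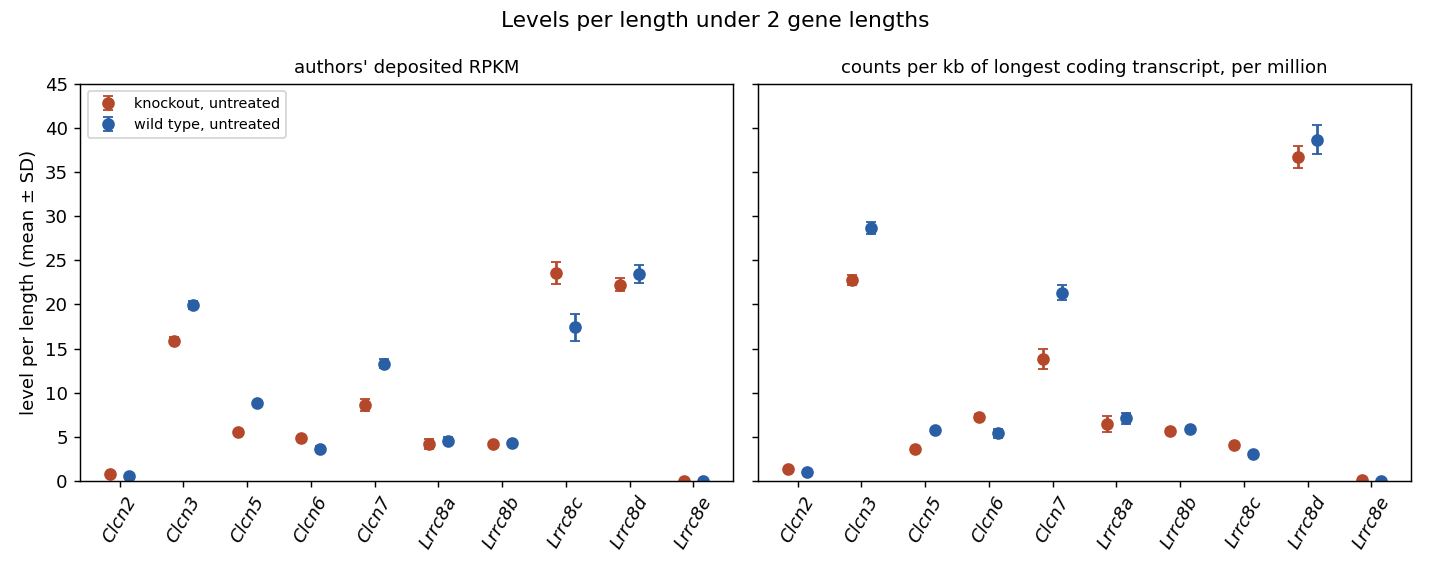
Level per length (mean ± SD, n = 4) of the 10 genes in untreated knockout (red) and untreated wild-type libraries (blue), by the authors' deposited RPKM (left) and by counts per kb of the longest coding transcript per M counts (right). Lrrc8c stands beside Lrrc8d on the left, at 23.6 RPKM in knockout libraries, and near the bottom on the right, at 4.09.

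The closest relatives outside the 10 genes were read next. Of 4 further ClC genes, Clcn4 and Clcn1 were tested, and both were lower in untreated knockout cells. Clcn4, an endosomal exchanger that pairs with ClC-3, had 50.9, 46.6, 51 and 56.8 CPM in untreated knockout libraries, against 74.5, 76.8, 73.9 and 71.8 CPM in wild-type libraries. The groups did not overlap (log2 -0.53, SE 0.052, adjusted p = 4.61e-10), and with H2O2 the log2 fold change was -0.59. Clcn1, the muscle chloride channel, averaged 8.41 CPM in untreated knockout and 9.97 CPM in untreated wild-type libraries (log2 -0.25, adjusted p = 0.0243), a call lost without any 1 of 3 libraries (knockout replicate 1 or 3, or wild-type replicate 9). With H2O2 its adjusted p was 0.163.

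Genes of partner proteins of the ClC exchangers were read beside them. Of 6 listed, 3 were tested and all 3 were called lower in both genotype comparisons, where 32.9% (untreated) and 32.4% (H2O2) of all genes were called lower, with a median log2 fold change of -0.32 without treatment, against 0.00 for all genes. Ostm1 encodes the subunit that ClC-7 needs for stability in lysosomes. It had 38.8, 40.1, 39.2 and 49.5 CPM in untreated knockout libraries, against 83.6, 90.8, 87.1 and 88.7 CPM in wild-type libraries, with no overlap. The change was -1.06 on the log2 scale (SE 0.059, adjusted p = 1.36e-14), against -0.59 for Clcn7, and -1.18 with H2O2. Tmem9b and Tmem9, membrane proteins of endosomes that associate with ClC exchangers, had log2 fold changes of -0.32 and -0.23 without treatment (adjusted p = 3.92e-05 and 0.000982) and -0.34 and -0.18 with H2O2. The Tmem9 call with H2O2 was lost in 2 of 20 alternatives.

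Cation channels of the same compartments split evenly. Of 6 listed, 4 were tested, and 2 were higher and 2 lower in knockout cells, without treatment and with H2O2, all 4 called where 66.8% and 65.4% of all genes were. Mcoln1, the lysosomal calcium release channel, averaged 67.1 CPM in untreated knockout and 103 CPM in untreated wild-type libraries (log2 -0.62, adjusted p = 5.53e-10). Tmem175, a lysosomal potassium and proton channel, averaged 21.05 CPM in untreated knockout and 29.1 CPM in untreated wild-type libraries (log2 -0.47). Tpcn1, an endosomal sodium and calcium channel, averaged 177 CPM in untreated knockout and 143 CPM in untreated wild-type libraries (log2 0.31). The call of Tpcn2 (log2 0.20, adjusted p = 0.0477) was kept in 4 of 20 alternatives without treatment and in 9 of 20 with H2O2 (log2 0.22).

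Genes that act with the volume-regulated channel moved in both directions. Among WNK kinases and their targets, which sense chloride and drive cotransporters, 7 of 10 were tested, and 2 were higher and 3 lower in untreated knockout cells. These 5 of 7 called compare with 66.8% of all genes. Stk39, the kinase SPAK, averaged 2.07 ± 0.27 CPM in untreated knockout and 10.4 ± 0.766 CPM in untreated wild-type libraries (log2 -2.33, adjusted p = 6.54e-14). Cab39l, a scaffold that activates SPAK, averaged 49.4 CPM in knockout and 79.4 CPM in wild-type libraries (log2 -0.68). Oxsr1, the related kinase OSR1, and Wnk1 had log2 fold changes of 0.20 and 0.14. Counts of Wnk4 summed to 13 in untreated knockout and 34 in untreated wild-type libraries (log2 -1.33, adjusted p = 0.0392), and its call was kept in 11 of 18 alternatives.

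The cation-chloride cotransporters carry chloride into or out of the cell with potassium or sodium. Of 9 listed, 8 were tested, with 3 higher and 4 lower in untreated knockout cells, 7 of 8 called against 66.8% of all genes. With H2O2, 2 were higher and 4 lower, 6 of 8 against 65.4%. Slc12a2, the sodium-potassium-chloride cotransporter NKCC1 that loads cells with chloride, averaged 79.7 CPM in untreated knockout and 142 CPM in untreated wild-type libraries (log2 -0.83, adjusted p = 7.59e-15). Slc12a1, the kidney cotransporter NKCC2, averaged 1.096 CPM in knockout and 5.93 CPM in wild-type libraries (log2 -2.43). Slc12a7, the potassium-chloride cotransporter KCC4, had a log2 fold change of -0.54, and Slc12a4 and Slc12a5, KCC1 and KCC2, had 0.17 and 0.85. Slc12a5 was not called with H2O2 (log2 0.55, adjusted p = 0.12). Slc12a8 had 42 counts in untreated knockout and 3 in untreated wild-type libraries, all 3 in wild-type replicate 9, a ratio of 13.8 with an exact binomial 95% interval of 4.42 to 69.7.

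Osmolyte and water transport genes were also mixed. Of 11 listed, 10 were tested, with 4 higher and 3 lower in untreated knockout cells, 7 of 10 called against 66.8% of all genes. Akr1b3, which makes the osmolyte sorbitol, averaged 334 CPM in untreated knockout and 229 CPM in untreated wild-type libraries (log2 0.55). Slc6a6, the taurine importer, had a log2 fold change of 0.18 without treatment and 0.06 with H2O2, where it was not called (adjusted p = 0.165). Aqp3 and Aqp5, water channels, went apart, at 0.61 and -0.98. Slc38a2, an amino acid importer induced by hypertonic stress, had -0.44.

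Other routes for anions completed the lists. Of 19 calcium-activated chloride channel genes, 4 anoctamins were tested, with 2 higher and 2 lower in knockout cells, against 66.8% of all genes called without treatment. Ano1, the calcium-activated chloride channel itself, averaged 448 CPM in untreated knockout and 381 CPM in untreated wild-type libraries (log2 0.23), and Ano8 had a log2 fold change of 0.93. Ano6, a lipid scramblase, and Ano10 had -0.34 and -0.36. Of 19 genes in the Slc4 and Slc26 families of anion exchangers and related transporters, 10 were tested. Without treatment 3 were higher and 6 lower, against 33.9% and 32.9% of all genes. Their median log2 fold change was -0.41, against 0.00 for all genes. Slc4a8, Slc4a2 and Slc4a7 had 1.36, 0.75 and 0.71, while Slc4a3, Slc4a11 and Slc26a2 had -0.95, -0.85 and -0.42. Of 8 other anion channel genes, 6 were tested, with 1 higher and 3 lower without treatment, 4 of 6 called against 66.8% of all genes. Clns1a had 0.28, and Slco2a1, the core of the maxi-anion channel, Tmem206, the acid-activated channel, and Ttyh2 had -0.65, -0.38 and -0.20. The Ttyh2 call was kept in 17 of 20 alternatives, and with H2O2 Ttyh2 was not called (log2 -0.16, edgeR adjusted p = 0.0862). With H2O2, 3 of these 6 genes were higher and 2 lower, against 33% and 32.4% of all genes.

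**Figure D5:**
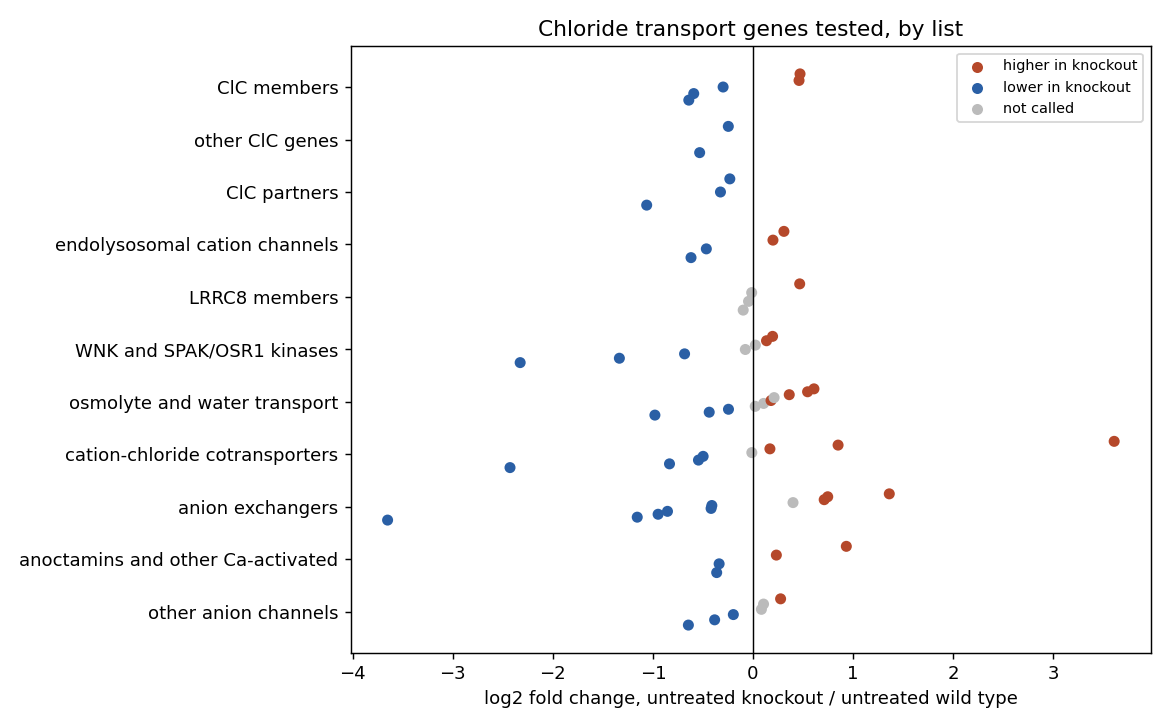
Log2 fold change, untreated knockout over untreated wild type, of each tested gene (points) in the ClC and LRRC8 families and in 9 further lists of chloride, osmolyte and endolysosomal transport genes, red where called higher, blue where called lower and grey where not called. The 2 further ClC genes and the 3 ClC partners lie left of 0 (Ostm1 at -1.06), while the other 7 further lists have points on both sides.

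None of these lists had a gene called by edgeR in the H2O2 comparisons of either genotype or in the difference between them. Of all genes tested, 0.0535% (knockout), 0.0153% (wild type) and 0% (difference) were called there, so the lists are near the share for any gene. The neighbours of the chromosome 5 group were read as well, the 5 annotated genes on each side in order of start position. On the downstream side these include Rps15a-ps5 and Lrrc8dos, which lie within Lrrc8d. Upstream of Lrrc8b, the guanylate-binding protein genes Gbp10 and Gbp6 averaged 0.65 and 0.454 CPM in untreated knockout libraries, against 2.67 and 2.13 CPM in untreated wild-type libraries (log2 -2.001 and -2.15, edgeR adjusted p = 5.87e-07 and 0.00426). Downstream of Lrrc8d, Zfp326 averaged 22.5 CPM in untreated knockout and 26.2 CPM in untreated wild-type libraries (log2 -0.22, adjusted p = 0.0114). Gm42141, between Lrrc8b and Lrrc8c, was not called (log2 0.32, adjusted p = 0.28), nor was Gm10359, next to Lrrc8d (log2 -1.22, adjusted p = 0.128). The called genes on the flanks, Gbp10 and Gbp6 upstream and Zfp326 downstream, were lower in knockout cells, and Lrrc8c was higher.

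Over the 15 libraries, the genes whose log2 CPM was most like Clcn7 were Prkcsh, Gas1 and Plpp3 (Pearson r of 0.991, 0.991 and 0.990). Those most like Lrrc8c were Melk, Slc10a6 and Aebp2 (0.983, 0.983 and 0.982). These correlations describe libraries that fall into 2 genotypes, with many genes differing between them, and they carry no p. The matched genes changed by very different amounts: untreated, the log2 fold change was -0.69 for Prkcsh and -6.49 for Plpp3, against -0.59 for Clcn7.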

How the data were processed

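Polyadenylated RNA of 15 libraries was sequenced from stranded libraries as read pairs, per the labels' protocols. The authors deposited expected counts per gene symbol, whole numbers as deposited, and RPKM values, made with cutadapt, STAR and RSEM on mm10, per the submitters' processing notes. Versions, settings, annotation and gene lengths are not given in the sources used here, and a short length raises an RPKM value.

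The 10 genes, the further gene lists and the tests were chosen with earlier results of these data known, so they give no independent support. Libraries were grouped by title. Counts were tested with edgeR 4.0.16 (R 4.3.3, limma 3.58.1): filterByExpr kept 13085 genes holding 99.9% of counts, libraries were scaled by TMM, and 1 robust quasi-likelihood fit of 4 group means had 11 residual degrees of freedom. Genes with a Benjamini-Hochberg adjusted p under 0.05 over all genes tested were called. The fit was tested on simulated data. Alternatives were RLE scaling, no filter, a stricter filter (1 CPM), DESeq2 1.42.0, only the groups compared, and leaving out each library. Shares and levels between genes used RPKM, and counts per length of the longest coding transcript in GENCODE M21. Libraries held 12.31 to 16.03 M counts. Intervals on low counts cover counting error only.

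The text names all 10 genes and, from each further list, up to 3 called genes in each direction with the smallest adjusted p in the untreated genotype comparison. One gene that this rule names is not reported here. The text also names Clic4, the 3 genes most like Clcn7 and Lrrc8c by Pearson r, and the neighbours of the chromosome 5 group.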

Additional observations from a re-analysis of the deposited data

Results flagged for a closer look

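Clcn7 in untreated knockout cells had 1 library apart from the others. Replicate 3 held 66.8 CPM, against 56.3 to 57.4 CPM in the other 3 libraries, a gap of 0.897 of the group's range where 0.829 marks a sample apart at the 95% level in a group of 4. It was the only such case among 27 groups of 4 libraries, of which chance gives about 1 in 20. All 4 knockout libraries stayed below the wild-type libraries. Without replicate 3 the log2 fold change of Clcn7 was -0.66 between untreated knockout and wild-type cells, against -0.59 with it, and 0.04 between treated and untreated knockout cells, against -0.03 with it. Among the other tested genes, the same library held the highest Clcn2, Lrrc8a and Lrrc8d levels of its group and the lowest Clcn3 level. For Clcn5, Clcn6, Lrrc8b and Lrrc8c it lay between other libraries of the group. The cause was not tested.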

How the results depend on the processing

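The number of the 10 genes called stayed the same in all 99 alternatives of the 5 comparisons, 6 in each genotype comparison and 0 in the others. Over 240 alternatives of their called log2 fold changes, none changed sign or lost its call. Of all 891 alternatives, 50 had another sign than the reported value, each for a value that was not called. One of them, Clcn7 in knockout cells with H2O2 against untreated, moved by more than its SE without replicate 3, to 0.04. Lrrc8a crossed the threshold in 2: -0.18 without untreated knockout replicate 3 (adjusted p = 0.0474), and -0.15 in treated cells with only the groups compared (adjusted p = 0.0483). Of 360 counts of list genes called, 87 differed from the reported count and 5 by more than 1.5 times: 7 calcium-activated channel genes were called with no filter and by DESeq2, against 4, and 1 further ClC gene, against 2, without untreated knockout replicate 1 or 3 or wild-type replicate 9. Of 1712 alternatives for other genes, 45 lost a call and 4 gained one. DESeq2 used a local dispersion fit. The few genes called over the whole table for H2O2 depended on the setting. In knockout cells 7 were reported, 27 with no filter, 61 by DESeq2, and 0 to 21 with 1 library left out (0 without treated knockout replicate 8, 18 without untreated knockout replicate 3, 21 without treated wild-type replicate 15). In wild-type cells 2 were reported, 12 with no filter and 12 by DESeq2, 0 with only the groups compared, and 0 to 13 with 1 library left out. For the difference of responses 0 were reported, 5 with no filter, 15 by DESeq2, and 0 to 3 with 1 library left out.

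Shares depended on gene length, as the lengths differ by construction. Each ClC share is of the sum over the 5 ClC genes among the 10, without Clcn4 and Clcn1. Without length scaling, shares in untreated knockout and wild-type libraries were 11.6% and 12.6% for Lrrc8a, 16.0% and 16.2% for Lrrc8b, 11.9% and 8.68% for Lrrc8c, 60.3% and 62.5% for Lrrc8d, 1.64% and 0.946% for Clcn2, 49.8% and 49.0% for Clcn3, 11.6% and 14.5% for Clcn5, 22.5% and 27.2% for Clcn7, and 14.5% for Clcn6 in knockout. With GENCODE M21 lengths, added after seeing the data, they were 12.2% and 13.0% for Lrrc8a, 10.7% and 10.7% for Lrrc8b, 7.72% and 5.53% for Lrrc8c, 69.2% and 70.7% for Lrrc8d, 2.79% and 1.62% for Clcn2, 46.7% and 46.1% for Clcn3, 7.38% and 9.26% for Clcn5, 14.9% and 8.69% for Clcn6, and 28.3% and 34.3% for Clcn7. Leaving out each library moved no share by more than 1 SD. In a group of 4 a larger shift could not occur. The check therefore cannot show whether a share rests on 1 library.

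No paired analysis was possible because the replicate numbers run from 1 to 16 with no number shared between groups. The fit restricted to the groups compared was not run for the difference of responses, which uses all 4 groups. At 12.31 to 16.03 M counts per library, depth limits Lrrc8e, with 0 to 6 counts in a library, and Clcn2, whose 95% intervals were the widest.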
